A study of Mus musculus with 6 samples.

Results

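Cathepsins are proteases of the lysosome, the acidic compartment in which cells break down proteins taken up from outside or delivered by autophagy. The set described here holds the 10 cathepsin genes Ctsa, Ctsb, Ctsc, Ctsd, Ctsf, Ctsh, Ctsk, Ctsl, Ctss and Ctsz, chosen by gene symbol, with every probe set that the platform annotation assigns to one of them alone. That gave 22 probe sets of 45037 and 10 genes of 18193. They were read on 6 Affymetrix arrays of total RNA from retinas of the albino mouse strain BALB/c. The 3 light damaged retina samples came from mice that had been dark adapted for 1 week, were exposed to 6000 lux of white fluorescent light for 6 h and were sampled 24 h after the damage. The 3 dark adapted samples came from mice kept in the dark for 1 week without that exposure. The labels give neither the age of the mice nor the source of each replicate in separate animals. The p-values below therefore measure a spread between samples that may be technical only.

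Most cathepsins are cysteine proteases of the papain family, made as inactive proenzymes and switched on in the lysosome by removal of the propeptide. Ctsd encodes an aspartic protease and Ctsa a serine carboxypeptidase. In the eye, the retinal pigment epithelium uses lysosomal proteases to digest shed photoreceptor outer segments, and microglia and macrophages use them to degrade engulfed cells. Ctsc, Ctsh, Ctss and Ctsz are known as enriched in microglia and other myeloid cells and are called myeloid-enriched below. Ctsa, Ctsb, Ctsd, Ctsf and Ctsl are found in nearly all cell types and are called ubiquitous, and Ctsk, best known from bone-resorbing osteoclasts, is kept apart.

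Values are log2 expression from RMA, the robust multi-array average, which summarises the probes of a probe set, and each gene is given by its brightest probe set. A gene was called changed at a Benjamini-Hochberg adjusted p under 0.05 in limma, adjusted over all genes. The array medians lay between 6.15 and 6.18 and the lower quartiles between 4.98 and 5.11. A probe set's level does not measure abundance against another probe set, so levels are compared between arrays only. No filter on level was applied, and the means of all 10 members lay above the lower quartiles. Of all genes 2.01% were called, 316 higher and 49 lower in light damaged retinas. A second quantile normalization gave 327 higher and 162 lower. After centring on 6 reference genes 142 were higher and 154 lower, and the median change over all genes was -0.21, against 0.03 without centring. The reference genes themselves were not level: 5 of the 6 had positive changes, with a median of 0.25 and Actb at 0.70 (limma adjusted p = 0.091, and 0.0112 with the block), and centring subtracts their mean change from every gene. The replicate numbers were taken to pair the arrays, as judged from these same data and stated by no label. A fit with the number as a block called 8.87% of genes. Calls with the block depend on that choice and are not independent support.

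In the fit without the block, light damaged retinas carried more RNA of Ctsc, Ctsz, Ctsh and Ctsl. These 4 of the 10 cathepsins were called higher, against 1.74% of all genes, none was called lower, against 0.269%, and 6 did not pass. Of the 4 only Ctsc kept its call on reference-centred arrays. Ctsl, just inside the threshold, lost its call when any 1 array was left out. The changes of 9 of the 10 were positive and their median was 0.61 on the log2 scale, against a median of 0.03 over all genes. For 6 of the 10 genes the light damaged and dark adapted values did not overlap, as for 15.6% of all genes. With the replicate block 7 cathepsins were called higher, against 6.73% of all genes, 1 was called lower, against 2.13%, and 2 did not pass. The additional calls were those of Ctsa, Ctsb and Ctsd, which were higher, and of Ctsf, which was lower. In whole tissue a change in the number of cells that hold a transcript and a change in the RNA per cell cannot be told apart.

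**Figure D1:**
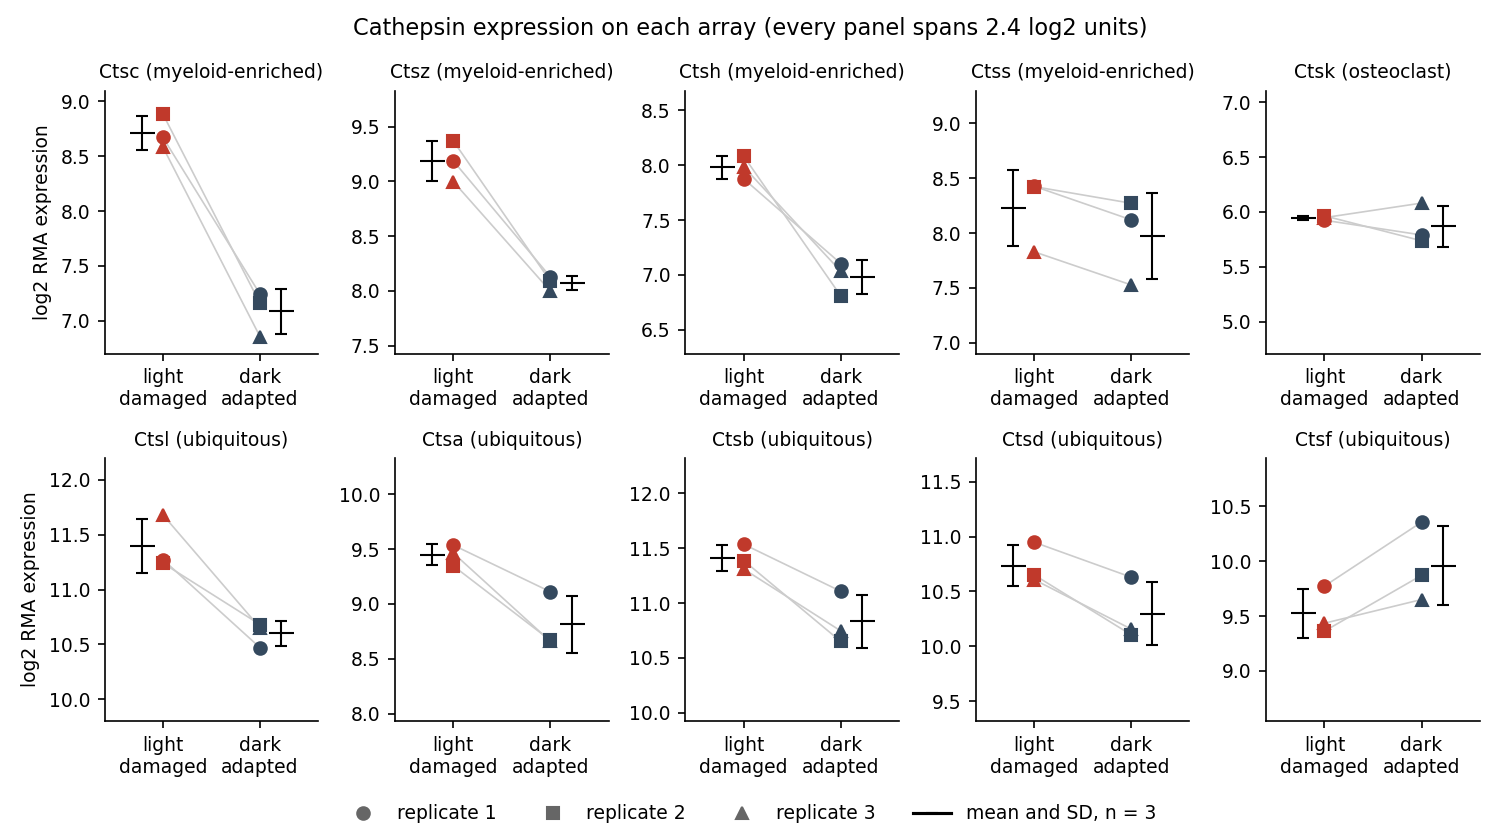
Log2 RMA expression (vertical axis) of each cathepsin on the 3 light damaged (red, left) and 3 dark adapted (blue, right) arrays, with lines joining arrays of the same replicate number and bars for the mean and SD. The groups do not overlap for Ctsc, Ctsz, Ctsh, Ctsl, Ctsa and Ctsb, and overlap for Ctss, Ctsk, Ctsd and Ctsf.

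Among the myeloid-enriched members, 3 of 4 were called higher, and the exopeptidases led. Ctsc encodes dipeptidyl peptidase I, which removes dipeptides from the amino end of proteins and activates the granule serine proteases of immune cells. Its log2 values were 8.67, 8.88 and 8.58 in light damaged retinas, against 7.24, 7.16 and 6.86 in dark adapted retinas. Every light damaged array thus lay more than 1 log2 unit above every dark adapted one. The means were 8.71 ± 0.15 and 7.09 ± 0.20 (SD, n = 3 each), a 3.09-fold rise with a log2 change of 1.63 ± 0.15 (SE) and limma adjusted p = 0.00187. Its call was kept under all alternatives that could be run, with limma adjusted p up to 0.0255. That highest value came from averaging its 3 probe sets, which gave a change of 0.62.

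Ctsz, also called cathepsin X, removes single residues from the carboxyl end of proteins. It read 9.19, 9.37 and 8.998 in light damaged retinas, against 8.13, 8.09 and 7.999 in dark adapted retinas. The groups were clearly apart and the dark adapted arrays lay close together. The log2 change was 1.11 ± 0.14 (SE), a 2.16-fold rise with limma adjusted p = 0.00596. Centring the arrays on the reference genes gave 0.87 with adjusted p = 0.0502, which ends the call.

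Ctsh encodes an aminopeptidase. On the log2 scale it measured 7.88, 8.08 and 7.99 in light damaged retinas and 7.10, 6.81 and 7.03 in dark adapted retinas. The groups did not overlap, and the log2 change was 1.00 ± 0.14 (SE), a 2.00-fold rise with limma adjusted p = 0.00886. The call was lost without light damaged replicate 2 (limma adjusted p = 0.0586), without light damaged replicate 3 (0.0585) and on reference-centred arrays (0.0962), while the change stayed between 0.76 and 1.06.

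Ctss was the myeloid-enriched member that did not pass. It encodes an endopeptidase of antigen presenting cells and microglia that stays active at neutral pH and trims the invariant chain of class II molecules. Its log2 values were 8.43, 8.42 and 7.83 in light damaged retinas and 8.12, 8.27 and 7.53 in dark adapted retinas. The groups overlapped, and in each group the array of replicate 3 was the lowest. Its log2 change was 0.25 with a 95% interval of -0.30 to 0.80 (limma adjusted p = 0.846, and 0.188 with the replicate block). Within the same replicate numbers the differences were 0.31, 0.15 and 0.30, all positive and all smaller than any such difference of Ctsc, Ctsz or Ctsh. Those ranged from 1.43 to 1.73 for Ctsc, from 1.00 to 1.28 for Ctsz and from 0.77 to 1.27 for Ctsh. The difference between Ctss and these members is given as values and was not tested. On reference-centred arrays the change of Ctss was 0.01.

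Of the 5 ubiquitous members, 1 was called. Ctsl encodes a strong endopeptidase of lysosomal protein turnover. It read 11.27, 11.24 and 11.68 in light damaged retinas and 10.47, 10.68 and 10.65 in dark adapted retinas. The groups were apart, with light damaged replicate 3 the highest. The change on the log2 scale was 0.80 ± 0.16 (SE), a 1.74-fold rise with limma adjusted p = 0.0468. This is just inside the threshold, and the call was lost when any 1 of the 6 arrays was left out (adjusted p between 0.0865 and 0.158), while with the replicate block the adjusted p was 0.00335. The mean of its 2 probe sets gave a change of 0.31 (limma adjusted p = 0.474).

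Ctsa, also called protective protein, forms a complex with beta-galactosidase and neuraminidase and stabilises both. The arrays gave log2 values of 9.54, 9.35 and 9.46 in light damaged retinas and 9.11, 8.67 and 8.66 in dark adapted retinas. The groups did not overlap, but dark adapted replicate 1 lay well above the other dark adapted arrays. Light damaged minus dark adapted, the log2 change was 0.64 ± 0.16 (SE) with limma adjusted p = 0.106. It passed with the replicate block (0.00856), and without dark adapted replicate 1 the change was 0.79 (0.0341).

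Ctsb encodes cathepsin B, which acts both as an endopeptidase and as a dipeptidase at the carboxyl end. Its log2 values were 11.54, 11.39 and 11.31 in light damaged retinas and 11.11, 10.65 and 10.75 in dark adapted retinas. The light damaged arrays were again all above the dark adapted ones, of which replicate 1 was the highest. The log2 change was 0.58 ± 0.16 (SE) with limma adjusted p = 0.143, and 0.0111 with the block.

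Ctsd encodes cathepsin D, the main aspartic protease of lysosomes, which is abundant in the retinal pigment epithelium. The log2 level was 10.95, 10.65 and 10.61 in light damaged retinas and 10.63, 10.10 and 10.16 in dark adapted retinas. The groups overlapped because dark adapted replicate 1 lay above light damaged replicate 3. Its log2 change was 0.44 ± 0.18 (SE), with limma adjusted p = 0.404 and 0.0336 with the block.

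Ctsf was the only member with a negative change. It encodes a papain-family protease whose loss in mice leads to lipofuscin storage in neurons. It read 9.77, 9.36 and 9.43 in light damaged retinas and 10.36, 9.87 and 9.65 in dark adapted retinas. The groups overlapped, since light damaged replicate 1 exceeded dark adapted replicate 3. The change on the log2 scale was -0.44 ± 0.21 (SE) with limma adjusted p = 0.508. With the replicate block the adjusted p was 0.0464, and the same-number differences were -0.58, -0.51 and -0.22. The second probe set of Ctsf, at a mean level of 7.43, did not show the same fall. It gave a change of -0.08, with same-number differences of 0.01, 0.24 and -0.49.

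Ctsk values were 5.92, 5.96 and 5.95 in light damaged retinas and 5.79, 5.74 and 6.08 in dark adapted retinas. All lay below the array medians and the groups overlapped. Light damaged minus dark adapted, the log2 change was 0.08 with a 95% interval of -0.24 to 0.39 (limma adjusted p = 0.939), and -0.16 on reference-centred arrays.

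The mean log2 change was 1.00 over the 4 myeloid-enriched members and 0.40 over the 5 ubiquitous ones. Within the replicate numbers 1, 2 and 3 the myeloid-enriched mean was higher in the light damaged array by 0.89, 1.11 and 1.00, and the ubiquitous mean by 0.28, 0.40 and 0.53. The myeloid-enriched mean therefore changed more on average in each of the 3 numbers, by 0.61, 0.70 and 0.47. The difference between the classes in their mean change was 0.60, and 0.41 with Ctsk counted as myeloid-enriched. These are descriptions of 2 small classes and carry no test. The classes also overlapped, as Ctsl, Ctsa, Ctsb and Ctsd had larger changes than Ctss.

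**Figure D2:**
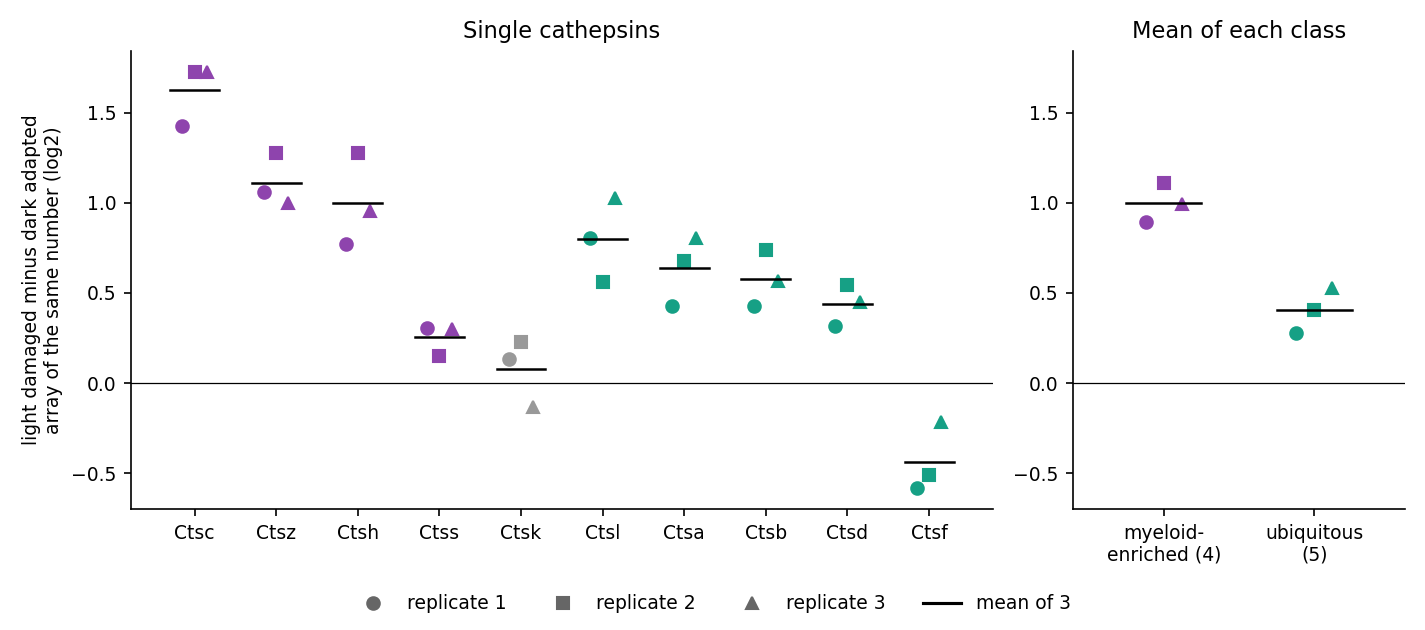
Light damaged minus dark adapted log2 value (vertical axis) within each replicate number, for single cathepsins (left; purple myeloid-enriched, grey Ctsk, green ubiquitous) and for the mean of each class (right), with a line at the mean of the 3. Ctsc, Ctsz and Ctsh stand highest, Ctss lies near the axis with Ctsk, and all 3 differences of Ctsf are negative.

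The probe sets of a gene did not all give the same change. In a fit over all 45037 probe sets, of which 1.02% were called, 5 of the 22 cathepsin probe sets were called higher and none lower. With the replicate block 11 were called higher and none lower, against 4.68% of all probe sets, and Ctsf and Ctsd were not called in that fit (limma adjusted p = 0.0852 and 0.0609). Both Ctsh probe sets were called, with log2 changes of 1.00 and 1.05, as were 2 of the 3 of Ctsz (1.11 and 1.18), whose remaining one gave 0.70. For Ctsc the bright probe set alone was called. Its other probe sets read 4.01 to 4.53 in light damaged and 3.98 to 4.40 in dark adapted retinas, below the lower quartile of every array, and gave changes of 0.11 and 0.12. The 5 probe sets of Ctsb gave changes between -0.03 and 0.75, of which the smallest was that of the dimmest one. The second probe set of Ctsl read 5.06 to 5.67 in light damaged and 5.16 to 5.71 in dark adapted retinas and gave -0.18. The bright Ctsl probe set did not pass in this fit (limma adjusted p = 0.0771). Ctsd, Ctsk and Ctss rest on 1 probe set each.

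**Figure D3:**
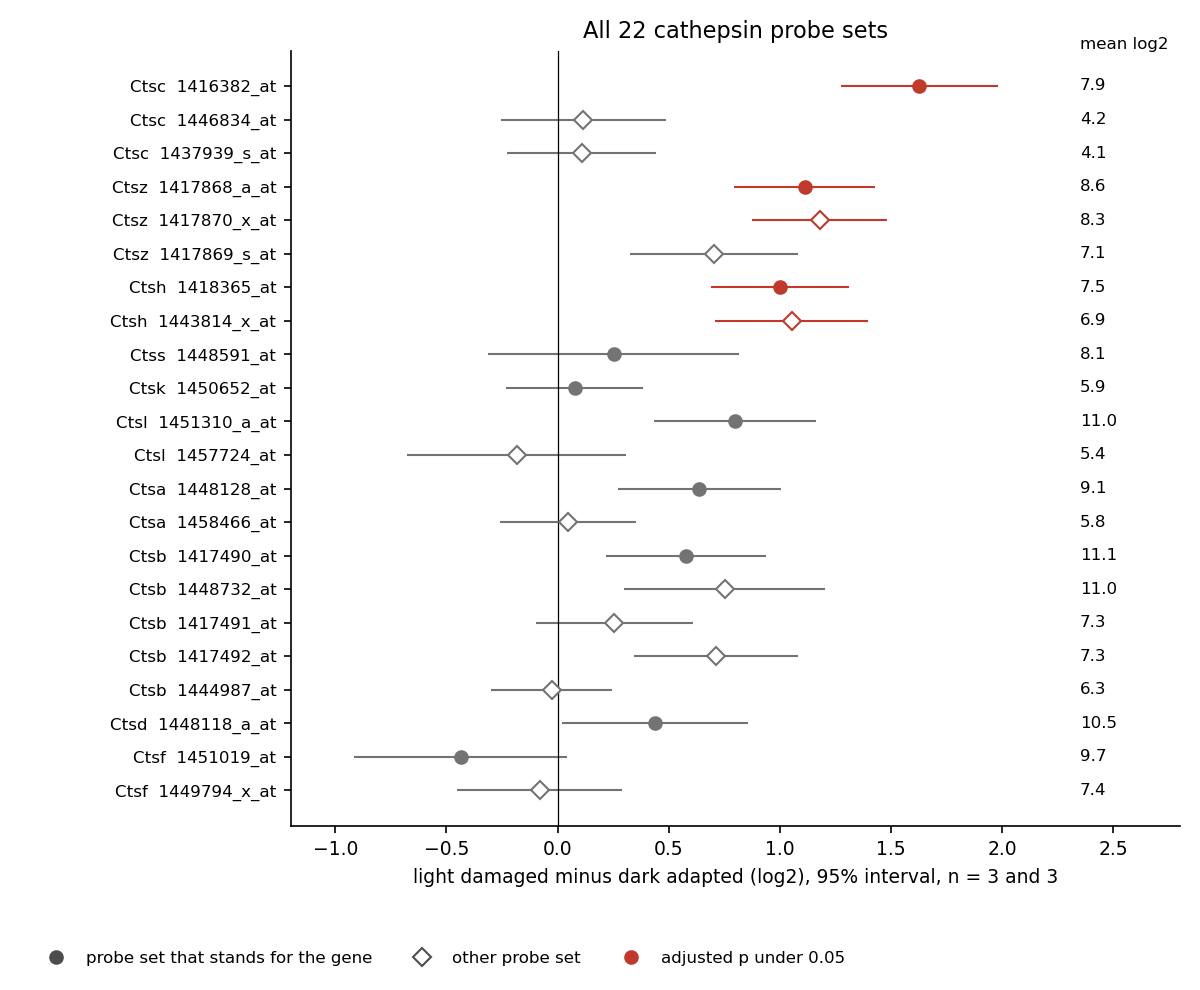
Log2 change of light damaged minus dark adapted retinas (horizontal axis) with its 95% interval for all 22 cathepsin probe sets, with the mean log2 level at the right. Filled circles stand for the gene, open diamonds are its other probe sets, and red marks an adjusted p under 0.05 over all probe sets, reached by 1 probe set of Ctsc and 2 each of Ctsz and Ctsh.

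Upstream sequences are shown for 4 members whose changes differed, Ctsc and Ctsz, which were called, and Ctss and Ctsd, which were not. They come from RefSeq, assembly GRCm38.p6, and run 5′ to 3′ on the gene's strand up to its outermost annotated start. Capitals mark matches on either strand to the motifs described next.
Ctsc, chr7:88277835-88278023, + strand: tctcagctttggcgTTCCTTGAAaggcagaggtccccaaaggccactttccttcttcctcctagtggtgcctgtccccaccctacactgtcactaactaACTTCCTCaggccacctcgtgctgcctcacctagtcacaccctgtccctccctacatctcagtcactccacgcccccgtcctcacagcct
Ctsz, chr2:174439040-174439289, - strand: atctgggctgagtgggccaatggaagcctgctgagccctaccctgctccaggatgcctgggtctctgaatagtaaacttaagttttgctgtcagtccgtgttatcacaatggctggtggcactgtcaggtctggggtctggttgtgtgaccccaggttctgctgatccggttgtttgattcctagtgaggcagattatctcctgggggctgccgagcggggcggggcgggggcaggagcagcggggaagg
Ctss, chr3:95526536-95526785, + strand: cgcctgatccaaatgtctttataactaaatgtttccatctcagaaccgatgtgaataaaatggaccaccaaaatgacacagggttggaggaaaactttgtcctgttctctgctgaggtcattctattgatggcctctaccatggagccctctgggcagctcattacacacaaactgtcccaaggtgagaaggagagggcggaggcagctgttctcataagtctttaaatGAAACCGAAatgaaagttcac
Ctsd, chr7:142387828-142388077, - strand: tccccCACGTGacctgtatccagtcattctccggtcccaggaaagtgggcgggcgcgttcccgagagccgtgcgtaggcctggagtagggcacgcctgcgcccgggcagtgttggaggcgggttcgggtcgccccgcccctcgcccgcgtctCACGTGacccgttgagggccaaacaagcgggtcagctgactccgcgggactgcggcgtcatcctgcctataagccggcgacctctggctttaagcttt
The motifs were CACGTG (the E-box at the core of the element that TFEB, a regulator of lysosomal genes, binds), GAGGAAGT (the myeloid factor PU.1), GAAANNGAA (interferon response element), TTCNNNGAA (STAT), TTGCNNAA (C/EBP) and TGACTCA (AP-1). They were chosen after the changes were known and searched on both strands in the 250 bases before each annotated start. Of the 10 genes 8 had such a window in the table, and Ctsb and Ctsh did not. CACGTG occurred in 4 of the 8 genes, all of them ubiquitous members: Ctsa at 1 of its 2 starts, Ctsd with 2 copies, Ctsf and Ctsl. It occurred in 6.02% of 32851 windows of all genes. GAGGAAGT and TTCNNNGAA were found in Ctsc, and in 2.44% and 7.02% of all windows. GAAANNGAA was found in Ctss and in 7.13% of all windows. TTGCNNAA was found in Ctsk and Ctsl (9.56% of all windows), TGACTCA in no member (4.46%), and the Ctsz window held none of the 6. In the 4 sequences shown, matches of different motifs did not overlap. A match in these windows describes letters and was not set against binding data.

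Other genes of the lysosome, and related ones such as protease inhibitors, were read from 8 further lists. Of their 92 genes 81 were measured, 2 were called higher and none lower, against 1.74% and 0.269% of all genes. These 2 were Lamp2, of the lysosomal membrane, and Serpina3n, a serpin gene from the list of inhibitors that is not a lysosomal gene. Positive changes numbered 65 of 81, against 57.0% of all genes. Of the 6 reference genes, which are bright, 5 had positive changes. Their median was 0.25, against medians of 0.04 to 0.22 for the 8 lists. Whether these lists moved more than other bright genes was not tested. With the replicate block 13 were called higher and none lower, against 6.73% and 2.13% of all genes. Of 11 other lysosomal proteases none passed, and the median change was 0.11. Lgmn (legumain), an asparaginyl endopeptidase that processes several cathepsins, had a log2 change of 0.17 (limma adjusted p = 0.887). Scpep1, a serine carboxypeptidase, had 0.30 (0.357).

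The cystatins are the natural inhibitors of papain-family cathepsins. Of 7 measured genes in the list of cystatins and other protease inhibitors 1 was called, the serpin gene Serpina3n, whose product inhibits serine proteases and is induced in the acute phase. Its log2 values were 9.51, 9.85 and 9.28 in light damaged retinas and 7.15, 6.65 and 7.32 in dark adapted retinas, a 5.69-fold rise (limma adjusted p = 0.00126). Cst3 (cystatin C), the main secreted cystatin, had a change of 0.05 (0.978). Cst7 (cystatin F), the cystatin of myeloid cells that acts on cathepsin C, had 0.16 (0.898). Cst7 read 4.90 to 5.53 over all arrays, around the lower quartiles, so dim signal limits what can be seen by it. Cstb (cystatin B), the cytosolic inhibitor, was singled out after its values were seen. It read 10.81, 10.81 and 10.14 in light damaged and 9.92, 9.63 and 9.07 in dark adapted retinas, apart in all arrays. Its log2 change was 1.05 ± 0.26 (SE), with limma adjusted p = 0.104 and 0.00042 with the block.

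In the lysosomal membrane Lamp2, a structural protein needed for fusion with autophagosomes, was called. It read 10.27, 10.20 and 9.99 in light damaged retinas and 9.15, 8.93 and 8.75 in dark adapted retinas. That is a 2.31-fold rise (limma adjusted p = 0.00616), and its other probe sets gave changes between 1.01 and 1.62. The other 10 of 11 genes of this list did not pass, and the list's median was 0.22. Mannose 6-phosphate sorting delivers most cathepsins to the lysosome. None of 7 genes in a list of this route and other lysosomal sorting receptors passed. Scarb2, a receptor outside the mannose 6-phosphate route, had the smallest p, with 0.36 (limma adjusted p = 0.409). Of 14 subunits of the proton pump that acidifies the lysosome none passed. All 14 changes were positive, against 57.0% of all genes, with a median of 0.21 and Atp6v0e at 0.58 (limma adjusted p = 0.0852). The median of the reference genes was 0.25.

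Of 19 measured lysosomal hydrolases of sugars, lipids and phosphate none passed, 17 changes were positive and the median was 0.17. Of all genes 2.01% were called and 57.0% had positive changes, and the median of the reference genes was 0.25. Gusb (beta-glucuronidase) had the smallest p, with 0.74 (limma adjusted p = 0.0643, and 0.00362 with the block). None of 5 transcription factors linked to lysosomal genes passed. Tfeb had -0.0034 and Tfe3 0.18 (limma adjusted p = 0.999 and 0.724). Of 7 measured class II processing genes none passed. Cd74, the invariant chain that Ctss trims, read 6.56, 6.68 and 6.90 in light damaged and 6.43, 6.41 and 6.69 in dark adapted retinas, a change of 0.21 (limma adjusted p = 0.753). Ifi30, a lysosomal thiol reductase, had 0.69 (0.106, and 0.0163 with the block).

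**Figure D4:**
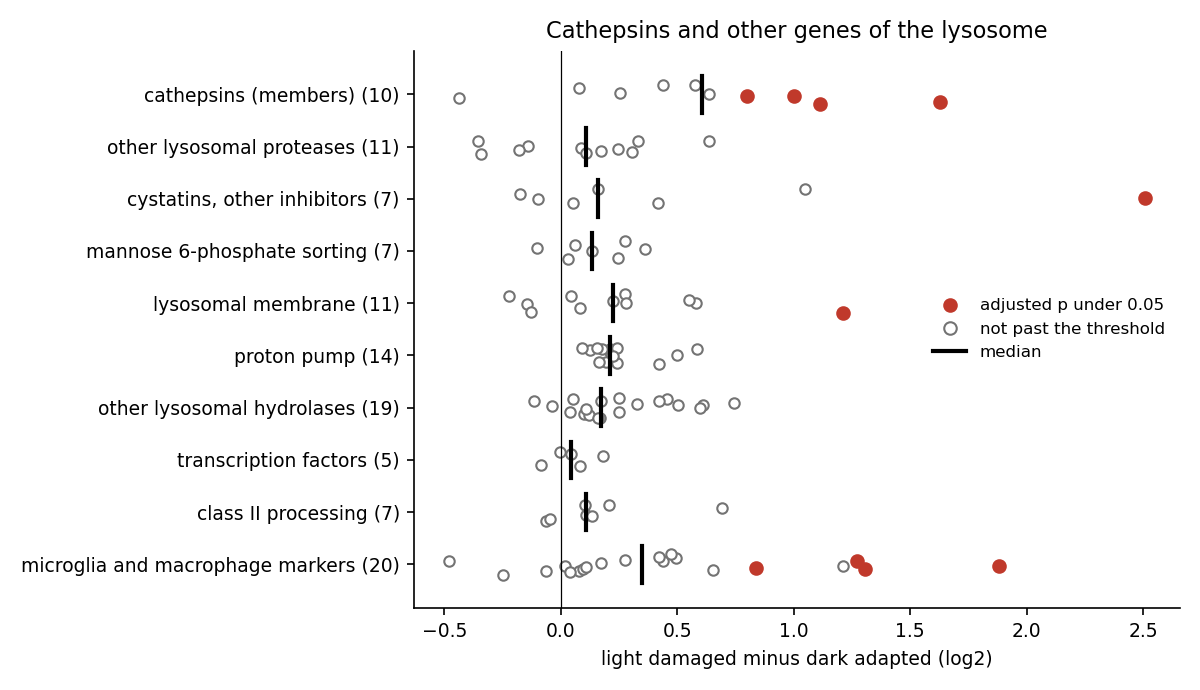
Log2 change of light damaged minus dark adapted retinas (horizontal axis) for each measured gene of the cathepsins, 8 further lists of lysosomal and related genes and the microglia and macrophage markers, with the number of genes in brackets. Red points passed an adjusted p of 0.05, open points did not, and the black bar is the median, which is 0.61 for the cathepsins and 0.04 to 0.22 for the 8 lists.

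Markers of other cell types were read beside the cathepsins. Of 20 microglia and macrophage markers 4 were called higher and none lower, against 1.74% and 0.269% of all genes, and the median change was 0.35. With the replicate block 8 were called higher and 1 lower, against 6.73% and 2.13% of all genes. The lower one was the microglia receptor gene P2ry12 (-0.48, limma adjusted p = 0.0199 with the block), named after its values were seen. It is dim, and its light damaged values of 4.68 to 4.93 lay below the lower quartiles of those arrays. The mean log2 level of the 20 markers was 6.49 to 6.63 in light damaged and 6.05 to 6.19 in dark adapted retinas. Their summed signal on the linear scale was 2379 to 2554 in light damaged and 1689 to 1877 in dark adapted retinas. The genes called were Cd68, a glycoprotein of phagocyte lysosomes (1.88), Lyz2, which encodes lysozyme (1.30), C1qc (1.27) and, outside the rule for named genes, Cd14 (0.84). The markers Aif1, Csf1r and Cx3cr1 had changes of 0.08, -0.25 and 0.09 (limma adjusted p = 0.947, 0.717 and 0.927). Aif1 read 4.88 to 5.36 over all arrays, around the lower quartiles. Cx3cr1 read 5.49 to 5.93, below the array medians. Dim signal limits what can be seen by both, while Csf1r read above the medians by its brightest probe set. The other probe sets of Csf1r gave changes of -0.04 and -0.03. The part of these cells in the cathepsin changes was not tested. Of 8 measured granulocyte and blood cell markers none passed, with Alas2, of haem synthesis, at -0.26 (limma adjusted p = 0.786), and their mean level was 5.58 to 5.78 in light damaged and 5.55 to 5.84 in dark adapted retinas.

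Retinal pigment epithelium can come along when a retina is dissected. The mean log2 level of its 10 markers was 6.61, 7.43 and 6.69 in light damaged and 6.66, 6.52 and 7.09 in dark adapted retinas, highest in light damaged replicate 2. None of the 10 passed. Rdh5, a retinol dehydrogenase, had a change of 0.82 (limma adjusted p = 0.193, and 0.0516 with the block). Ttr (transthyretin), named after its values were seen, had 0.99 (0.274, and 0.0471 with the block), and gave 1.12 to 1.41 by its other probe sets. It was the 1 marker of 10 called higher with the block, against 6.73% of all genes. Rdh5 and Ttr were both highest in light damaged replicate 2, and neither overlapped between groups. That array also held the highest values of Ctsc, Ctsz and Ctsh. Without it their log2 changes were 1.54, 1.02 and 0.95, and Ctsh lost its call as given above. The same array had the highest microglia and macrophage marker mean, 6.63 against 6.52 and 6.49 in light damaged replicates 1 and 3. Among dark adapted arrays, replicate 3 had the highest pigment epithelium mean but the lowest Ctsc (6.86) and Ctsz (7.999). Ctsh was 7.03 there, between the other dark adapted arrays. The part of the pigment epithelium in the cathepsin changes was not tested. Of 8 Müller glia markers 1 was called higher, against 1.74% of all genes, and none lower, against 0.269%. It was Vim, an intermediate filament gene (1.67, limma adjusted p = 0.002). Of the 8 changes 5 were negative and the median was -0.11. With the replicate block 3 were called higher and 2 lower, against 6.73% and 2.13% of all genes. The lower ones were Glul, glutamine synthetase (-0.99, limma adjusted p = 0.000775 with the block), and Rlbp1, a retinoid binding protein (-0.50, 0.0329), named after their values were seen. Opposite moves within the list leave its mean level at 10.34 to 10.64 in light damaged and 10.25 to 10.53 in dark adapted retinas. Of 7 measured rod photoreceptor markers 1, Nrl, was called lower (-1.04), against 0.269% of all genes. None of the 7 changes was positive, and the median was -0.62. With the replicate block 4 were called lower and none higher, against 2.13% and 6.73% of all genes. The mean level of the rod markers was 11.68 to 12.08 in light damaged and 12.19 to 12.65 in dark adapted retinas.

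The genes with a profile most like that of Ctsc, the member with the smallest p, were Stat2, Neat1, Tapbp, Jun and H2-K1. Likeness was the root mean square difference over the 6 arrays after the dark adapted mean was subtracted, and it was between 0.09 and 0.13 on the log2 scale for these 5. Their log2 changes lay between 1.54 and 1.63. Genes chosen by this likeness must have changes near that of Ctsc, so these values are no separate result.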

How the data were processed

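Total RNA of BALB/c retinas was read on 6 Affymetrix arrays. The deposited values are log2 expression, made by the authors with RMA per the submitters' processing notes; the log2 scale was judged from the range of 3.30 to 13.89. RMA corrects the background, normalizes arrays by quantiles and summarises probes, so a change in total RNA would not be seen and dim probe sets are compressed. Of 45101 probe sets 64 were controls, 34945 had 1 gene in GEO's platform annotation, 932 several and 9160 none. Symbols were matched through Entrez identifiers to RefSeq (GRCm38.p6, 34741 matched, 0 changed). The brightest probe set stood for each of 18193 genes.

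Groups, taken from the sample titles, were compared with limma 3.58.1 (lmFit, eBayes) in R 4.3.3, without a filter on level, and the fit was tested on simulated data. The noise of that test was drawn separately for each array. How calls fare under deviations shared by same-numbered arrays, given below, was not tested. Alternatives were a replicate block, quantile normalization, centring on reference genes, a filter on low genes, other choices of probe set, an intensity trend and leaving out each array. The number of arrays limits precision.

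Arrays with the same replicate number deviated together from their group means (correlations 0.731, 0.618 and 0.432 over probe sets, against -0.48 to 0.00902 for other numbers). Deviations from a group mean cancel within the group, so high same-number correlations push the others down. The low values for other numbers are therefore not separate evidence. All 3 same-number correlations were over 0.1, and on this basis, which no label states, same-numbered arrays were treated as pairs. The pairing was read from the values that were then tested, so calls with the block are not independent support.

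The members and lists were chosen with earlier results of these data known. Genes named besides the 10 members were set by rule: per list up to 3 with the largest change past the threshold, or else the 1 with the smallest p, with Aif1, Csf1r, Cx3cr1, Cd68, Cst3, Cst7, Cd74, Lgmn and Tfeb added, and the 5 genes most like the leading member. Genes named outside this rule are marked in the text.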

Additional observations from a re-analysis of the deposited data

How the results depend on the processing

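The fit with a replicate block called 1613 genes, among them 8 cathepsins, and 11 cathepsin probe sets, against 365, 4 and 5 without it. The block ended no call of a cathepsin gene. The 4 cathepsin calls became 1 on arrays centred on the reference genes, where Ctsc kept its call, and 2 with probe sets of an x, s or a suffix left out, where Ctsz and Ctsd have no probe set left and Ctsl is read by its dim probe set, with a change of -0.18. They became 3 with quantile normalization again, with the mean of all probe sets and with the intensity trend, where Ctsl lost its call each time (adjusted p = 0.256, 0.474 and 0.0776), and stayed 4 with low genes left out. Leaving out 1 array gave 151 to 417 genes and 2 to 4 cathepsins called, with 2 cathepsins each without light damaged replicates 2 and 3, and 212, 151, 159 and 180 genes without light damaged replicates 1, 2 and 3 and dark adapted replicate 2. Causes were not tested beyond this. Averaging the probe sets of Ctsc gave 0.62 in place of 1.63, as its dim probe sets are then counted (adjusted p = 0.0255). Of 128 values of single cathepsins under the alternatives 126 kept their direction, and 108 stayed in place relative to the threshold. The exceptions in direction were Ctsl above and Ctsk on reference-centred arrays. The replicate block, the filter on low genes and the intensity trend cannot alter a change itself, so direction was fixed there. The same held for members that kept their brightest probe set when suffixed ones were left out. Dim signal limits what can be seen by the other 2 Ctsc probe sets, below the lower quartile of every array, and by the second Ctsl probe set.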
